A study of Homo sapiens with 6 samples.

Results

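KYSE150 is an established cell line from a human squamous cell carcinoma of the oesophagus, and its baseline transcriptome was described from 3 clones (1, 4 and 5) that carry the pIRES2-EGFP vector with no insert, called mock clones. They are 3 of the 6 libraries of the series; the other libraries come from clones transfected with NCCRP1 and were not used here. Every mock clone is a stable transfectant of the same line and gave 1 library, so the spread below is between clones of 1 line and holds technical variation as well. Libraries were made from total RNA after DNase treatment and removal of ribosomal RNA, with the Ion Total RNA-Seq chemistry. Of 40448 Entrez gene IDs, 12237 had a value above 0 in all 3 mock clones, and among 19125 protein-coding IDs this held for 10979, or 57.4%. NCCRP1 itself was listed at 0 in all 3 mock clones.

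Levels are given as log2 RPKM (reads per kilobase of gene, scaled to the size of the library), a scale on which 0 stands for 1 RPKM and each step of 1 is a doubling. Genes below 1 RPKM carry a listed 0. The denominators of the libraries, read from whole-read steps of the microRNA genes, were about 12290000, 12690000 and 15960000 reads in clones 1, 4 and 5. A gene of 1 kilobase at the median level of clone 1 would then rest on about 143 reads, and one at 1 RPKM on about 12.3. Clones 1 and 4 were read in sequencing run 15 and clone 5 in run 14, so that clone 5 and its run cannot be told apart.

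Stratified squamous epithelium, which lines the oesophagus, renews from a basal layer anchored to the basement membrane by hemidesmosomes. Basal cells make the keratin pair 5 and 14 under the transcription factor p63 (TP63). As they move upward they switch to other keratins and build a cornified or mucosal envelope. Squamous carcinomas of the oesophagus often keep much of the basal programme. The sections below follow these roles, from RNA classes and abundant genes to lineage factors, surface proteins, receptors and the differences between the clones.

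The mock transcriptome was dominated per length by small nucleolar RNAs (snoRNAs), short RNAs that guide the chemical modification of ribosomal RNA. Of 390 snoRNA genes, 248 were above 0 in all 3 clones, with a median mean level of 9.56, against 3.59 for the protein-coding genes. Reads were estimated from level and gene length. By that estimate snoRNAs held only 4.40%, 5.63% and 6.81% of reads in clones 1, 4 and 5. Protein-coding genes held 91.2%, 90.2% and 89.2%. The highest of all genes were box C/D snoRNAs, so called after a pair of short conserved motifs near their ends. Their RefSeq genes matched GENCODE v29 transcripts, and 3 of the highest are shown (GRCh38) because they carry both motifs, TGATGA within the first 20 bases and CTGA within the last 15, printed in capitals.
SNORD96A (chr5:181241814-181241892, minus strand): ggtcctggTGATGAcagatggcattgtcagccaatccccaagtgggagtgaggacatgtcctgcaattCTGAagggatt
SNORD104 (chr17:64146083-64146152, plus strand): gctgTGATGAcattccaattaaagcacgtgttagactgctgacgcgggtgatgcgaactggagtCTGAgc
SNORD83B (chr22:39313819-39313911, minus strand): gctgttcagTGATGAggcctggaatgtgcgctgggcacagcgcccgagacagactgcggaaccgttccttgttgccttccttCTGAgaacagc

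SNORD96A stood at 15.64, 16.11 and 15.83 in clones 1, 4 and 5, SNORD104 at 15.53, 15.88 and 15.71, and SNORD83B at 13.97, 14.51 and 14.66. Clone 1 was lowest for each of these RNAs. SNORD96A lies within RACK1, a ribosome-associated scaffold protein gene at 9.86, and SNORD83B within RPL3, a ribosomal protein gene at 9.43. Both motifs, searched on the transcript strand as exact letters, were found in 101 of the 148 SNORD genes above 0 that had a transcript sequence, or 68.2%, and in 70 of the 100 SNORD genes listed at 0. They were found in 66.9% of all 275 SNORD transcripts and in 0 of 142 SNORA transcripts.

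snoRNA levels differed with genomic origin. Of the SNORD genes outside the imprinted clusters, 142 of 163 were above 0, at a median of 10.71, and of the box H/ACA genes (SNORA), which guide pseudouridylation, 81 of 108 were above 0, at 8.80. The clusters gave another picture. SNORD113 (9 genes), SNORD114 (31 genes) and SNORD115 (47 genes) had no member above 0 in all 3 clones, whereas 25 of 29 SNORD116 genes were above 0, at a median of 4.71. The SNORD116 copies resemble each other closely, and how reads were divided among them is uncertain. Among snoRNAs above 0 that lie inside a longer gene on the same strand, the host was also above 0 for 191 of 198; among snoRNAs listed at 0, it was for 25 of 71. Of those 71, 38 belong to SNORD112, SNORD113 and SNORD114, where no host was above 0, and outside these groups it was 25 of 33. In 179 of those 191 pairs the snoRNA stood higher than its host.

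Other small and structural RNAs ranged widely. RPPH1, the RNA of ribonuclease P, was at 15.28, 14.74 and 13.97, and RMRP, the RNA of ribonuclease MRP, at 14.43, 14.20 and 14.66. The Cajal body RNA SCARNA2 had a mean of 10.68, and all of the RNAs classed with it were above 0 except 2 of 24. TERC, the telomerase RNA, was at 6.80, 6.51 and 6.55. The minor spliceosome RNAs RNU6ATAC (8.04 ± 0.14, SD, n = 3) and RNU4ATAC (7.06 ± 0.20) were above 0, whereas the major spliceosome genes RNU1-1 and RNU4-1, the signal recognition genes RN7SL1 to RN7SL3, RN7SK and the Y RNA genes were all listed at 0. Those RNAs are among the most abundant of any cell and most have near-identical copies, so the listed 0 gives no level for them. Transfer RNA genes (0 of 399), ribosomal RNA genes (0 of 17) and immunoglobulin or T cell receptor V segments (0 of 213) had no ID above 0 in all 3 clones. For transfer and ribosomal RNA genes the listed 0 gives no level either, and ribosomal RNA had been removed from the libraries.

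Long noncoding RNAs were sparser and lower. Above 0 were 447 of 4217, at a median of 1.91. MALAT1, a nuclear RNA of speckles, led with 9.38, 9.59 and 9.86, followed by the snoRNA hosts SNHG7 (8.72 ± 0.17) and ZFAS1 (8.05 ± 0.15), the paraspeckle RNA NEAT1 (7.90 ± 0.08) and SNHG32 (7.64 ± 0.27). The imprinted H19 was at 7.38, 7.12 and 7.09, while MEG3, which lies in the same imprinted domain as SNORD113 and SNORD114, was listed at 0. MIR205HG, the host of the epithelial microRNA miR-205, stood at 7.09, 7.13 and 7.41. Pseudogenes without a known transcript were nearly all listed at 0, with 13 of 10593 above it, against 296 of 1112 transcribed pseudogenes.

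**Figure D1:**
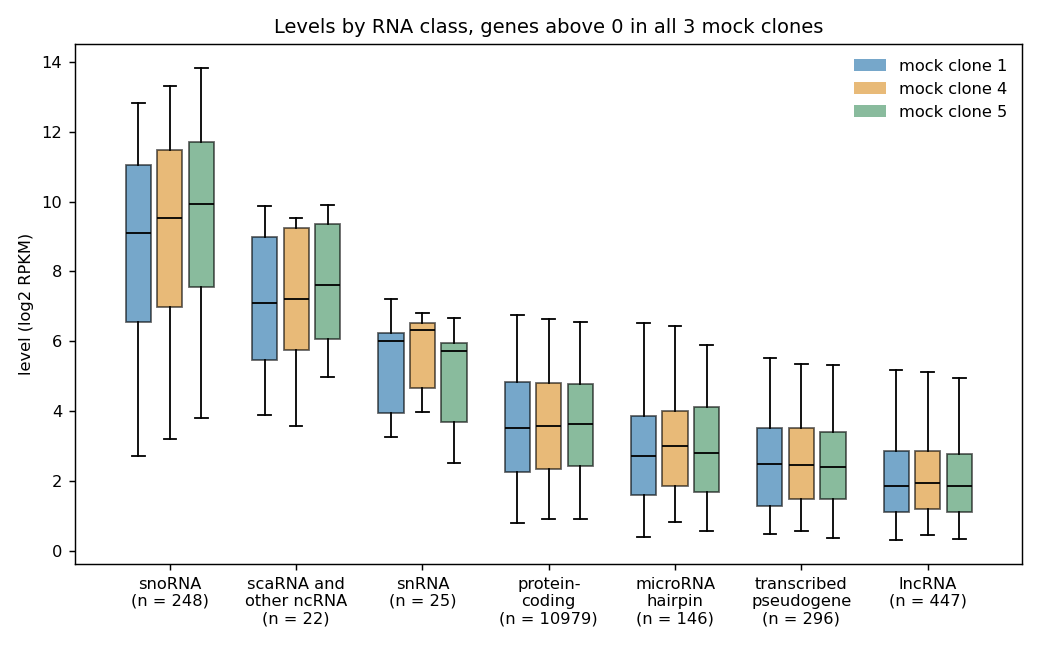
Levels (log2 RPKM) of genes above 0 in all 3 mock clones, by RNA class and clone; boxes span the quartiles with the median as a line, and whiskers run from the 5th to the 95th percentile. snoRNAs lie highest in every clone, with medians of 9.11, 9.53 and 9.92 in clones 1, 4 and 5, and lncRNAs lie lowest.

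MicroRNA hairpin genes were above 0 in 146 of 1476 cases, at a median of 2.78. Libraries of total RNA do not separate the mature strands from the hairpin or its host transcript, so each value belongs to the hairpin gene. Of the 146, 88 lie inside a longer gene on the same strand and 76 of those hosts were themselves above 0. Among microRNA genes listed at 0 that lie inside such a gene, the host was above 0 for 326 of 570 (57.2%). The highest was MIR3654, with 9.76, 10.19 and 10.26, followed by MIR3609, with 7.92, 8.04 and 8.63; they lie within CHCHD3 (5.84) and TRRAP (4.82). MIR4426 (6.97 ± 0.35), MIR221 (6.85 ± 0.40) and MIR205 (6.84 ± 0.13) came next. Mature sequences from RefSeq (GRCh38.p14) were found for 137 of the 146. They are shown for the epithelial miR-205 and for the groups that share a seed, bases 2 to 8, which selects the targets and is printed in capitals.
hsa-miR-205-5p (chr1:209432166-209432187, plus strand): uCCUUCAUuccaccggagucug
hsa-miR-221-3p (chrX:45746180-45746202, minus strand): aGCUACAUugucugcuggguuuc
hsa-miR-222-3p (chrX:45747036-45747056, minus strand): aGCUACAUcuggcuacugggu
hsa-let-7a-5p (chr9:94175962-94175983, plus strand): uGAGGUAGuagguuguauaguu
hsa-let-7b-5p (chr22:46113691-46113712, plus strand): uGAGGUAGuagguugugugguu
hsa-let-7i-5p (chr12:62603691-62603712, plus strand): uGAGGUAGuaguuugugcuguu
hsa-miR-200c-3p (chr12:6963742-6963764, plus strand): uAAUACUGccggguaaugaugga
hsa-miR-200b-3p (chr1:1167160-1167181, plus strand): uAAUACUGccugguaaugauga
hsa-miR-141-3p (chr12:6964155-6964176, plus strand): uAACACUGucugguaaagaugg

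The let-7 seed GAGGUAG was the most widely represented, in 10 hairpins above 0 of the 14 that carry it. They ran from MIRLET7A2 (5.53, 4.94 and 6.24) to MIRLET7G (3.21, 3.84 and 3.75). Both hairpins with the seed GCUACAU were above 0, MIR221 at 6.65, 7.31 and 6.59 and MIR222 at 4.64, 5.49 and 5.71. All 3 hairpins with the seed AAUACUG, which belong to the miR-200 family that maintains the epithelial state, were above 0 as well, MIR200C at 4.90, 5.35 and 5.60, MIR200B at 2.54, 3.03 and 2.16 and MIR429 at 0.48, 0.91 and 1.41. The related seed AACACUG belongs to MIR141, at 2.73, 1.53 and 2.09, and MIR200A, at 1.45, 1.75 and 1.32. Hairpin genes are short (MIR205 spans 110 bases), so a given level rests on far fewer reads than in a gene of 1 kilobase. The low values of MIR429, MIR200A, MIR141 and MIR200B can rest on few reads and give no firm level. MIR205 was at 6.69, 6.93 and 6.90, close to MIR205HG above. MIR31 was at 5.00, 5.30 and 4.62, above its host MIR31HG in every clone. MIR203A, a microRNA of differentiating keratinocytes, and the mesenchymal MIR143 and MIR145 were listed at 0.

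Protein-coding genes above 0 had mean levels from 0.09 to 10.97, with quartiles at 2.35, 3.59 and 4.81. In RPKM, the median was 12.01 and the 99th percentile 273. The distribution was broad rather than dominated by a few genes: the highest 10 held 5.15% and the highest 100 held 18.1% of the summed RPKM of protein-coding genes, and 35 genes lay at 9 or above. The clones gave 5.60%, 4.63% and 5.22% for the highest 10.

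Histone genes were prominent among the 25 highest protein-coding genes. Replication-dependent histone messages end in a stem-loop in place of a poly(A) tail, and libraries from depleted total RNA retain them. H3C7, for histone H3, was at 11.16, 10.48 and 11.26, H4C3, for histone H4, at 10.65, 10.61 and 11.28, and the linker histones H1-2 and H1-4 at 10.82 ± 0.25 and 10.66 ± 0.45. The range of H3C7 over the clones reached past its neighbours in rank, so that the order of the first places was not settled. H2BC4 (10.15 ± 0.05), H2BC13 (9.77 ± 0.12), H3C2 (9.65 ± 0.46), H4C16 (9.46 ± 0.33) and H4C5 (9.43 ± 0.35) also belonged to the 25. A list of 73 histone genes holds 10 linker (H1) genes, such as H1-7, and is not restricted to replication-dependent ones. Of the 73, 64 were above 0 (87.7%, against 57.4% of protein-coding genes). Listed at 0 were 7, among them the testis genes H2AC1, H2BC1 and H1-7. Copies of replication-dependent histone genes code for the same or nearly the same protein, and the division of reads among them is uncertain.

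The remaining leaders were glycolytic, ribosomal, cytoskeletal and antigen-presenting. GAPDH was at 10.97, 10.92 and 10.89, the narrowest range among the first 5 genes. Ribosomal components in the group were RPL8 (10.77 ± 0.50), RPLP0 (10.23 ± 0.22), RACK1 (9.86 ± 0.15), RPS6 (9.74 ± 0.38), RPL11 (9.64 ± 0.28) and RPL3 (9.43 ± 0.35), and the elongation factors were EEF2 (9.70 ± 0.23) and EEF1A1 (9.58 ± 0.03). RPSA2, at 9.54 ± 0.12, is a copy of RPSA whose reads may be shared. KRT5, TUBA1B (9.79 ± 0.13), an alpha tubulin gene, and HLA class I genes were also in the group. HLA-B and HLA-C, heavy chains that present peptides to T cells, were at 9.36 ± 0.08 and 9.27 ± 0.21, beside B2M, their light chain, at 8.18 ± 0.12. HLA genes are polymorphic, which affects how reads of a line align to the reference. The class II genes HLA-DQA1 and HLA-DQB1 were listed at 0.

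Genes that every cell uses set the meaning of a listed 0. In 7 lists of core genes (ribosomal proteins, proteasome, chaperonin, RNA polymerase II, tRNA synthetases, spliceosomal proteins and V-ATPase), 177 of 177 were above 0 in all 3 clones. Among 114 mitochondrial ribosomal proteins and complex I subunits, lists added after the values had been seen, 3 were listed at 0: MRPL57, MRPL9 and NDUFA5. TPT1, UBB and YBX1, single genes looked up for the same reason and abundant in nearly all cells, were listed at 0 in all 3 clones. A listed 0 can therefore also be a missing estimate, and this holds for the intermediate filament genes VIM and KRT19 and for CLDN1, a claudin, all listed at 0 as well. Levels within 1 complex also varied: ribosomal proteins, most of them needed in equal numbers, ran from RPS26 at 2.22 and RPL36A at 2.45 to RPL8 at 10.77, which limits how closely levels of different genes can be compared.

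The list of squamous epithelial markers, chosen with earlier results of these data known, holds mostly genes of basal cells and of cell adhesion. It leaves out envelope genes of differentiated cells, where 0 of 18 late cornified envelope and 0 of 10 small proline-rich genes were above 0. All 16 markers on the list were above 0 in all 3 clones, with a median of 6.09 and 14 above the median of protein-coding genes. Against that, 1 of 15 columnar markers (LGALS4, at 0.57 ± 0.11), 1 of 10 fibroblast markers (COL1A1, at 2.14 ± 0.39), 0 of 10 endothelial markers and 1 of 12 leukocyte markers (CSF1R, at 2.30 ± 0.16) were above 0. Defining genes of those cells, CDX2, COL3A1, PECAM1 and PTPRC among them, were listed at 0. Of 10 neural markers, the beta tubulin TUBB3 (5.78, 5.83 and 4.95) and MAP2 (1.13, 1.52 and 1.67) were above 0.

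Keratins, the intermediate filaments of epithelia, pair a type II with a type I chain. Of 26 type II genes 9 were above 0, and of 28 type I genes 7, shares of 34.6% and 25% that lie below the 57.4% of all protein-coding genes. KRT5, the basal type II keratin, stood at 10.36, 9.95 and 10.19 and ranked 9 of 10979. It held 74.5% of the summed RPKM of type II keratins and exceeded KRT8 by 1.93 to 2.56 within the clones. Its usual basal partner KRT14 was far lower, at 4.22, 3.71 and 2.0, and clone 5 stood apart. The type I chains at high level were KRT17 (8.59, 8.35 and 7.67), a keratin of activated and hyperproliferative epithelium, and the basal KRT15 (7.90, 7.69 and 8.90). Their order depended on the clone, KRT17 leading in clones 1 and 4 and KRT15 in clone 5. KRT14, KRT16 and KRT17 are closely related in sequence and have pseudogenes, so their levels are uncertain to that extent.

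The simple epithelial pair KRT8 and KRT18 was present at 7.84 ± 0.19 and 7.63 ± 0.15, ranks 152 and 184. KRT80, a type II keratin of many epithelia, was at 6.79 ± 0.08. The wound-associated KRT6A (4.60 ± 0.29) and KRT16 (4.26 ± 0.21) were at moderate levels, and KRT7, a simple keratin, was at 3.74, 4.07 and 2.26, lowest in clone 5. Differentiation keratins were low or listed at 0: KRT13, the type I chain of suprabasal oesophagus, was at 2.96, 2.56 and 2.15, its partner KRT4 was listed at 0, as were KRT1 and KRT2 of the epidermis, and KRT10 was at 1.07 ± 0.19. The hair keratins KRT81 (1.01, 2.62 and 0.82) and KRT86 (1.00, 2.0 and 0.92), which share sequence, were highest in clone 4.

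The lineage factors followed the same outline. Of 28 squamous factors 20 were above 0 (71.4%, against 57.4% of protein-coding genes), 1 in some clones and 7 at a listed 0. ELF3, an epithelial ETS factor, led at 7.0, 7.07 and 6.96, followed by CEBPB, a factor of keratinocyte differentiation, at 6.49, 6.33 and 5.99. GRHL2, a regulator of epithelial sheets, was at 5.37 ± 0.09. TP63 was at 4.19, 4.14 and 4.97, PITX1 at 4.25, 4.40 and 3.71, and KLF5 at 4.09 ± 0.22. SOX2, a foregut and squamous factor, was lower, at 2.83, 2.20 and 3.03, and TP63 and SOX2 ranked 3513 and 7567. GRHL3, BNC2, FOXE1, DLX5, MAF and HOPX were listed at 0.

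**Figure D2:**
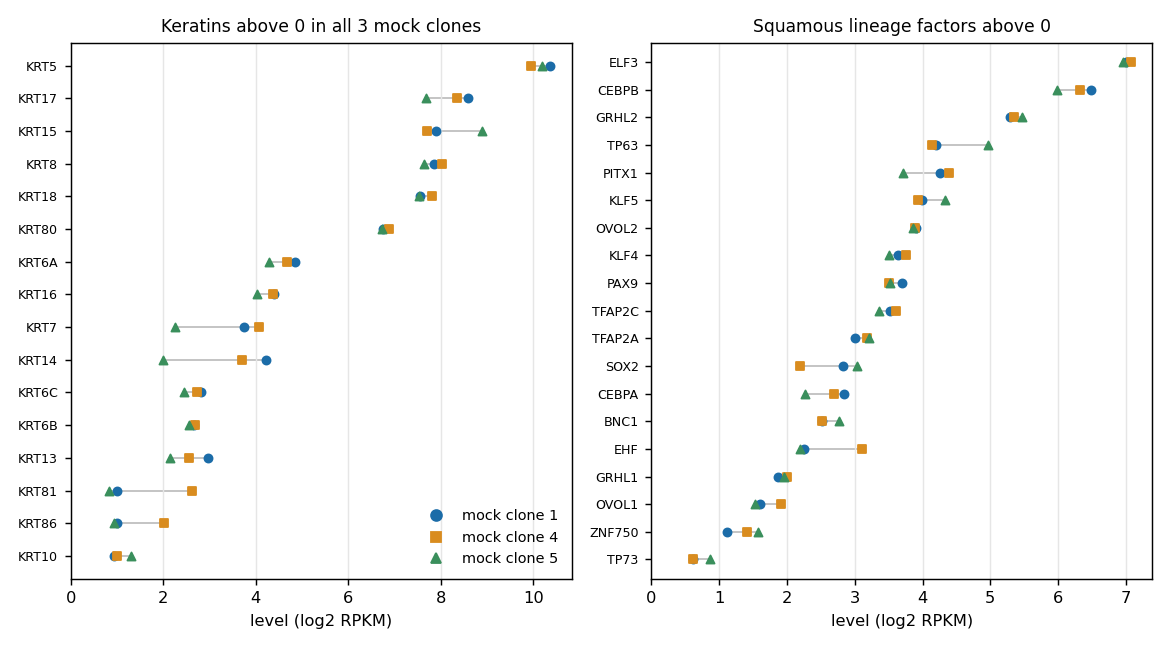
Levels (log2 RPKM) of the 16 keratins (left) and of squamous lineage factors (right, 1 of the 20 not shown) above 0 in all 3 mock clones; each symbol is 1 clone and the grey line is the range. KRT5 lies highest near 10, KRT14, KRT7 and KRT81 have the widest ranges among keratins, and TP63 lies higher in clone 5 than in clones 1 and 4.

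Factors of other lineages were mostly listed at 0, with 8 of 54 above 0 (14.8%, against 57.4% of protein-coding genes). None of the 8 lay above the protein-coding median. SNAI2, a repressor of epithelial genes also used by basal keratinocytes, was the highest at 2.14, 2.30 and 2.43, before SOX9 (1.49, 2.32 and 1.59) and FOXA1 (1.39, 1.72 and 2.10). CDX1, CDX2, HNF4A, HNF4G and FOXA2, factors of columnar and hepatic lineages, were listed at 0. All 3 lung and thyroid factors and all 7 neural factors were listed at 0. With a floor of log2 1 in all 3 clones, 5 of 54 remained.

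SOX genes were led by SOX15, a factor of squamous and myogenic cells, at 6.48, 6.37 and 6.07. It held 49.0% of the summed RPKM of the 7 SOX genes above 0 of 19 and exceeded SOX12, the next, by 1.33 to 1.53 within the clones. The 7 were 36.8% of the SOX list, against 57.4% of protein-coding genes. Among the KLF and SP factors, 14 of 25 were above 0 (56%, near the 57.4% of protein-coding genes). KLF10 (5.65 ± 0.16) and KLF6 (5.29 ± 0.10) led, followed by KLF16 (4.60 ± 0.24), SP1 (4.58 ± 0.21) and KLF13 (4.23 ± 0.04). TFAP2C (3.50 ± 0.13) and TFAP2A (3.13 ± 0.11) were the highest AP-2 factors. GATA6 and GATA2 lay below 1 on average, and GATA1, GATA4 and GATA5 were listed at 0.

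HOX genes, whose position in 4 clusters mirrors where along the body they act, were unevenly represented. Together 17 of 39 were above 0 (43.6%, against 57.4% of protein-coding genes). In the HOXA cluster 8 of 11 were above 0, in HOXB 3 of 10, in HOXC 5 of 9 and in HOXD 1 of 9. HOXB7 was highest at 4.20, 3.81 and 3.75, then HOXA10 (3.59, 3.53 and 3.77) and HOXA3 (2.95, 2.94 and 3.20). HOXD1, the only HOXD gene above 0 in all 3 clones, had the widest range of the family, at 3.24, 2.02 and 2.80. HOXA13, HOXB1, HOXB2, HOXB5, HOXB6 and HOXB8 were listed at 0, so HOXB7 stood between listed zeros in its cluster.

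Of 26 integrin subunits, which anchor cells to the matrix, 13 were above 0 (50%, against 57.4% of protein-coding genes). ITGB4, the hemidesmosomal beta chain, was at 7.66, 7.65 and 7.48, above ITGB1, the common beta chain, at 6.08, 6.31 and 6.55. Of the alpha chains, ITGA3, which binds laminin, was at 7.27 ± 0.13, and ITGA6, the partner of ITGB4, was lower at 4.41 ± 0.06. ITGB5 (5.38 ± 0.23) and ITGA5 (4.04 ± 0.17) followed. The leukocyte chains ITGAL, ITGAM and ITGAX, and ITGA1 and ITGA4, were listed at 0, while ITGB2 was at 2.03, 1.90 and 0.82.

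In the cell junctions, P-cadherin (CDH3) was at 8.10, 8.11 and 8.09 and E-cadherin (CDH1) at 6.89, 6.81 and 7.37. CDH3 exceeded CDH1 in every clone, by at least 0.72, and the mesenchymal CDH2 and CDH11 were listed at 0. Desmosomal cadherins were DSG2 (5.17 ± 0.24), DSG3 (4.27 ± 0.25), DSC2 (3.64 ± 0.24) and DSC3 (2.15 ± 0.26). Claudins, which seal tight junctions, were above 0 in 6 of 19 cases (31.6%, against 57.4% of protein-coding genes). CLDN4 (7.42, 7.45 and 6.95) and CLDN7 (7.26, 6.82 and 6.89) led. Connexins were low, with 7 of 20 above 0 (35%) and the skin connexin GJB2 at 0.55 ± 0.04. GJA1 was at 1.76, 0.71 and 1.29.

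Of 58 receptor tyrosine kinases, which carry growth factor signals across the membrane, 26 were above 0 (44.8%, against 57.4% of protein-coding genes). The collagen receptor DDR1 led at 8.84, 8.68 and 8.65, rank 50, and its paralogue DDR2 was listed at 0. EPHB4, an ephrin receptor, was at 6.81, 6.52 and 6.44 and held 64.3% of the summed RPKM of the 6 Eph receptors above 0. AXL, of the TAM family, was at 6.49, 6.69 and 6.03, with TYRO3 at 4.03 and MERTK not above 0 in all clones. PTK7 (5.94 ± 0.05) is a catalytically inactive Wnt-pathway receptor.

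The EGF receptor family had 3 of 4 members above 0. ERBB2 stood at 5.56, 5.55 and 5.51, EGFR at 5.44, 5.36 and 5.51, and ERBB3 at 4.82 ± 0.06, while ERBB4 was listed at 0. ERBB2 and EGFR overlapped between clones and were not separated by level. MET, the hepatocyte growth factor receptor, was at 4.99, 4.99 and 5.41, and IGF1R at 4.63 ± 0.03, 3.49-fold above INSR in RPKM. Of the FGF receptors, FGFR2 (4.39 ± 0.09) led FGFR3 by 0.49 to 0.57 within the clones, and FGFR1 was listed at 0. All 3 VEGF receptors, all 3 neurotrophin receptors, PDGFRA, PDGFRB and KIT were listed at 0.

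**Figure D3:**
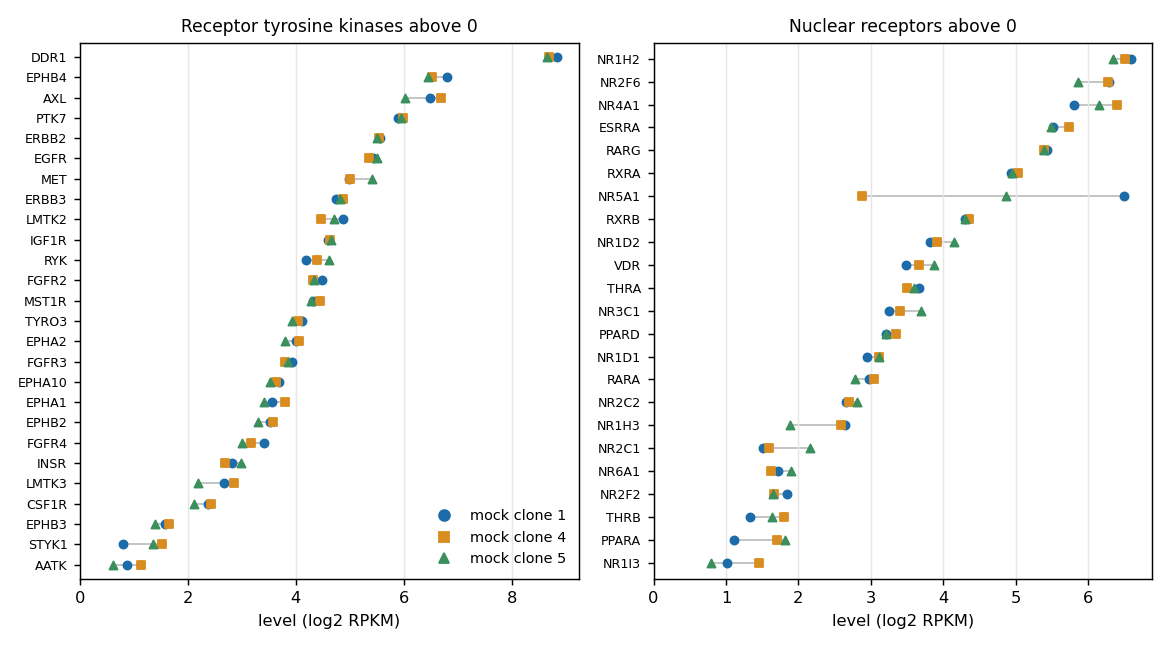
Levels (log2 RPKM) of the 26 receptor tyrosine kinases (left) and 23 nuclear receptors (right) above 0 in all 3 mock clones; each symbol is 1 clone and the grey line is the range. DDR1 stands clear of the next kinase by 2.14, and NR5A1 spans 2.88 to 6.49 while the next widest nuclear receptor, NR1H3, has a range of 0.76.

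Nuclear receptors, transcription factors gated by small lipophilic ligands, were above 0 in 23 of 48 cases (47.9%, against 57.4% of protein-coding genes). NR1H2 (the oxysterol receptor LXR beta) was highest, at 6.60, 6.51 and 6.34, followed by NR2F6 (6.14 ± 0.24), the immediate-early NR4A1 (5.81, 6.40 and 6.15), ESRRA (5.58 ± 0.14), RARG (5.40 ± 0.02), the retinoid receptor of squamous epithelia, and RXRA (4.97 ± 0.05). Of the steroid receptors, the glucocorticoid receptor NR3C1 alone was above 0, at 3.26, 3.41 and 3.69; ESR1, ESR2, PGR and NR3C2 were listed at 0, and so was PPARG, a lipid sensor.

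Immune receptors were partly represented. Of 52 matched cytokine receptor genes 25 were above 0 (48.1%, against 57.4% of protein-coding genes). SIGIRR, an inhibitory member of the interleukin 1 receptor family, was at 6.26, 6.19 and 5.79, IL4R at 5.24, 5.51 and 5.25, IL10RB at 4.94 ± 0.10, IFNGR2 at 4.64 ± 0.06, IL15RA at 4.12 ± 0.29 and IL27RA at 4.47, 4.40 and 3.30. No gene of the IL-12 receptor group or beta-common group was above 0, and IL2RA, IL2RB and IL2RG were listed at 0. Of the TNF receptor superfamily 16 of 29 were above 0 (55.2%, near the 57.4% of protein-coding genes). TNFRSF12A (6.66 ± 0.32), the receptor for TWEAK, led, before LTBR (6.33 ± 0.07) and TNFRSF1A (5.53 ± 0.02). NGFR (5.12 ± 0.08), a basal keratinocyte marker, and the TRAIL receptors TNFRSF10B (4.82 ± 0.05) and TNFRSF10A (4.14 ± 0.04) followed. Of 10 toll-like receptors none was above 0 in all 3 clones, and TLR1, TLR3 and TLR6 were above 0 in some.

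Of 91 G protein-coupled receptors, 23 were above 0 (25.3%, against 57.4% of protein-coding genes), and the median of these was 2.27. GPRC5A, an orphan receptor induced by retinoic acid, led at 5.92, 6.24 and 5.84, followed by FZD6 (4.65 ± 0.18), P2RY11 (4.60 ± 0.13), LPAR2 (4.56 ± 0.15), ADORA2B (4.14 ± 0.21) and F2RL1 (4.09 ± 0.28), which is protease-activated. All 19 chemokine receptors were listed at 0, and SMO, the hedgehog transducer, was as well.

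Of 45 glycolytic isozymes and transporters 28 were above 0, and of 48 cytoskeletal isoforms 29, shares of 62.2% and 60.4% that lie near the 57.4% of all protein-coding genes. Some steps had a clear leading isozyme and others did not. HK1, the broadly used hexokinase, was at 6.06, 5.98 and 5.92 and held 94.9% of the summed RPKM of the hexokinases, with HK2 at 1.74 and HK3 and HKDC1 listed at 0. PKM (9.33, 9.13 and 8.67), ALDOA (7.34 ± 0.16), ENO1 (7.63 ± 0.10) and PFKP (7.38 ± 0.21) were the leading isozymes of their steps, with TPI1 at 7.88 ± 0.08. PFKP held 57.0% of the phosphofructokinase RPKM. LDHA (6.98, 7.08 and 7.08) and LDHB (6.75, 6.76 and 7.20) overlapped between clones. SLC2A1, the basal glucose transporter, was at 5.37, and SLC2A2, SLC2A3, SLC2A4 and SLC2A5 were listed at 0.

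Actins were ACTB at 8.89, 8.67 and 8.52 and ACTG1 at 8.05 ± 0.13, with the muscle actins ACTA1, ACTC1 and ACTG2 listed at 0. TUBA1B (9.76, 9.69 and 9.93) and TUBB (9.06 ± 0.21) were the main tubulins. FLNA, an actin crosslinker, was at 8.93, 9.05 and 8.34, lowest in clone 5, and MYH9 at 7.90 ± 0.17 held 69.1% of the RPKM of the non-muscle myosin II genes. All 7 14-3-3 genes were above 0, YWHAE first at 9.25 ± 0.16 and the epithelial SFN at 8.03, 8.10 and 7.50. Of the aldehyde dehydrogenases 13 of 19 were above 0 (68.4%), ALDH3B1 first at 5.59 ± 0.31. Of the galectins 6 of 9 were above 0 (66.7%), LGALS1 first at 7.18 ± 0.36. The squamous LGALS7 and its paralogue LGALS7B were both listed at 0, which can also be a missing estimate. Annexins were led by ANXA1 at 8.15, 7.98 and 8.37, and 9 of 12 were above 0 (75%). Of the S100 proteins 10 of 17 were above 0 (58.8%), S100A14 (7.58 ± 0.29), S100A6 (7.46 ± 0.49) and S100A16 (7.29 ± 0.23) first. Among all protein-coding genes the share above 0 was 57.4%. S100A7 and S100A12, inflammatory members, were listed at 0, and S100A8 and S100A9 were above 0 in some clones only.

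Genes often altered in oesophageal squamous carcinoma were nearly all transcribed, 37 of 39 (94.9%, against 57.4% of protein-coding genes). The oncogenes CTTN (6.56 ± 0.14), HRAS (6.74, 6.29 and 5.97), EGFR and MYC (5.07 ± 0.11), and CCND1, which drives entry into the cell cycle, at 4.88, 4.98 and 4.94, were above 0. The suppressors AJUBA (5.99 ± 0.14), KEAP1 (5.67 ± 0.08) and CDKN2A (5.49, 5.61 and 5.14) were above 0. FHIT and FGFR1 were listed at 0. All 12 telomere genes were above 0; TERT, the telomerase catalytic subunit, was at 3.12, 3.32 and 2.80.

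Cancer-testis antigens, normally restricted to germ cells, were mostly listed at 0. Of 32 matched genes, 7 were above 0 (21.9%, against 57.4% of protein-coding genes) and 24 were listed at 0. MAGEA4 was at 7.65, 7.53 and 7.52, rank 200, and MAGEA3 (6.48 ± 0.05), MAGEA6 (6.35 ± 0.08), MAGEA12 (5.19 ± 0.05) and MAGEA2 (4.86 ± 0.09) followed. MAGEA3 and MAGEA6 are near-identical and their reads may be split. MAGEA8, MAGEA10, MAGEA11, MAGEB1, MAGEB2 and MAGEC1 were listed at 0. Of 16 immune checkpoint ligands, 9 were above 0 (56.25%, near the 57.4% of protein-coding genes). CD276 (5.21 ± 0.11), NECTIN2 (4.99 ± 0.19), PVR (4.75 ± 0.07) and VSIR (4.33 ± 0.22) were first. CD274, which codes for PD-L1, was at 2.14 ± 0.25 and PDCD1LG2 was listed at 0.

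Larger families, chosen after the values had been seen, marked the extremes of the baseline. Of 56 translation initiation factor genes 52 were above 0 (92.9%), as were 32 of 35 ubiquitin-conjugating enzymes and 8 of 9 minichromosome maintenance genes, MCM3 among them at 8.37 ± 0.21. Zinc finger genes named ZNF were close to the background in number (296 of 512, 57.8%) and low in level, at a median of 2.23. At the other end, 1 of 387 olfactory receptors, 0 of 24 bitter taste receptors, 1 of 94 keratin-associated proteins, 0 of 18 late cornified envelope genes and 0 of 10 small proline-rich genes were above 0. Of 18 mucins, MUC1 (1.32, 2.32 and 1.80) and MUC16 were above 0. Of 12 laminin genes 7 were above 0 (58.3%, near the background), LAMB3 at 7.65 ± 0.27 and LAMB2 at 7.42 ± 0.01 first. COL17A1, a hemidesmosomal collagen, led the 18 of 44 collagens above 0 (40.9%), at 7.19 ± 0.06.

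The mock clones resembled each other closely, and clone 5 was the one most often apart. Across the 10979 protein-coding genes above 0, levels of clones 1 and 4 correlated with r = 0.990, of 1 and 5 with r = 0.972, and of 4 and 5 with r = 0.974; these points share a reference and are not independent. The median absolute difference was 0.14 between clones 1 and 4 and 0.30 and 0.26 for the pairs with clone 5. A range over the clones of at least 1, a factor of 2, was reached by 366 genes, or 3.33%. In 257 of them (70.2%) clone 5 stood apart from the other 2, in 63 (17.2%) clone 4 and in 46 (12.6%) clone 1. Over all 10979 genes the clone apart was clone 5 in 56.8%, clone 4 in 17.6% and clone 1 in 25.6%. Without clone 5 the count with a difference of at least 1 fell to 48, and without clone 1 or 4 it was 185 or 229.

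The widest gene at a mean of at least 4 was NR5A1, which codes for the steroidogenic factor SF-1. It was at 6.49 in clone 1, 2.88 in clone 4 and 4.87 in clone 5, high in clone 1 and low in clone 4. Its partners in steroid synthesis, STAR, CYP11A1, CYP17A1 and CYP19A1, were listed at 0 in all 3 clones, as was NR0B1. Of the 13 genes in that list, added after seeing NR5A1, 4 were above 0: NR6A1, INHA, FDX1 and AMH, a hormone of the gonads. AMH was at 2.10, 2.32 and 0.76, lowest in clone 5, an order unlike that of NR5A1. PLAGL1, an imprinted zinc finger gene of lower mean, was at 3.27, 0.13 and 0.83, high in clone 1. KRT14 above had a range of 2.23.

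UBD, a ubiquitin-like protein induced by inflammatory signals, was at 4.49, 5.53 and 2.84, and IL32, a cytokine gene, at 5.30, 5.99 and 4.08. RELB, an NF-kB subunit, was at 4.71, 5.25 and 3.81 and NFKB2 at 6.11, 6.46 and 5.40. Clone 4 was highest and clone 5 lowest in each. A list of NF-kB genes was added because of these values, so its counts are a description of them. Of its 12 genes above 0, 7 had that order and 7 had a range of at least 1. Without UBD, IL32 and RELB, which the widest-range rule had picked, 4 of 9 had that order and 4 of 9 had a range of at least 1. Across the 10979 protein-coding genes above 0, 1804 (16.4%) had that order and 366 (3.33%) had a range of at least 1. TNFAIP3, a feedback inhibitor, was at 2.24, 2.96 and 1.70 and IL6 at 2.86, 3.71 and 2.38. The acute-phase gene SAA1 was at 2.80, 3.50 and 0.57.

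The rest of the 12 widest were RPS19 (6.97, 6.27 and 4.92), COX6C (5.70, 4.98 and 4.07), BLVRB (7.16, 6.81 and 5.54), UBL5, NDUFA13 (8.10, 7.72 and 6.60), LAMTOR2, RPL18 and CCDC124. Clone 5 was lowest in 11 of the 12, 7 of the 12 lie on chromosome 19, which holds 7.26% of all protein-coding genes above 0, 9 are in the shortest quartile of genes and 6 in the quartile of highest GC content. Over all genes, a range of at least 1 was about as frequent in the quartile of lowest GC content (117 genes, 4.27%) as in that of highest (128 genes, 4.67%). Across all genes, clone 5 minus the mean of clones 1 and 4 had a median of 0.39 in the quartile of lowest GC content and -0.29 in that of highest, and went from -0.14 for the shortest genes to 0.19 for the longest. Between clones 1 and 4 the GC medians ran only from -0.10 to 0.02. Clone 5 was highest for 200 of 248 snoRNAs, against 46.5% of protein-coding genes. The part of GC content, length or run in these differences was not tested.

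**Figure D4:**
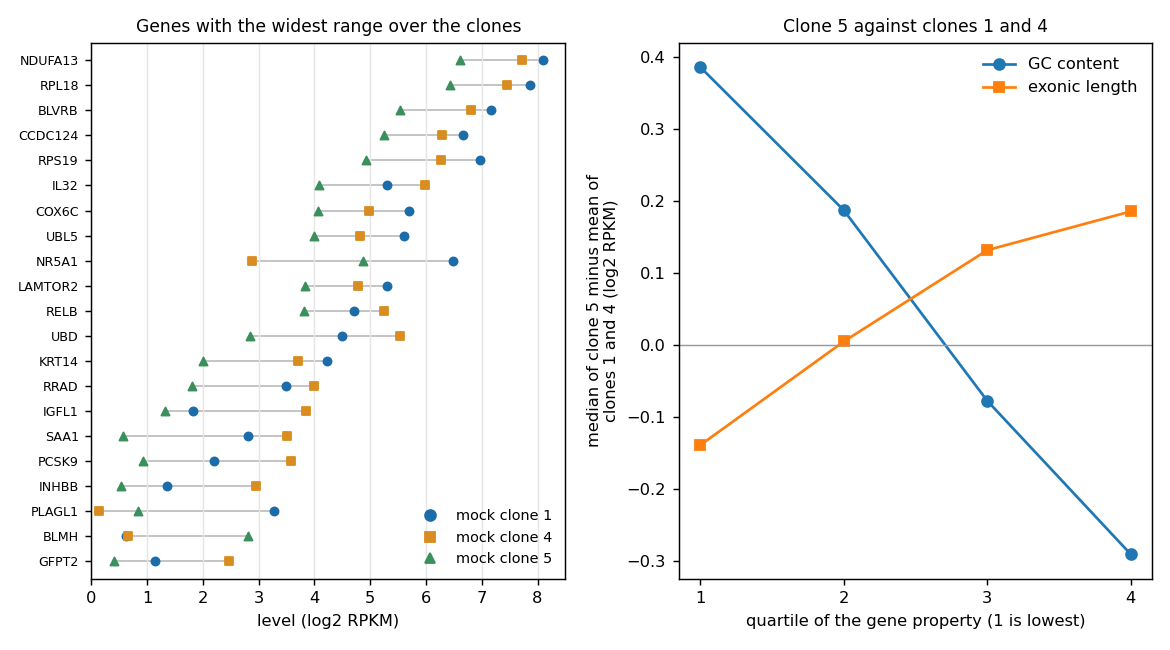
Left: levels (log2 RPKM) in each mock clone of the 12 genes of widest range at a mean of at least 4 and of the other genes with a range of at least 2; the grey line is the range. Right: median of clone 5 minus the mean of clones 1 and 4 by quartile of GC content and exonic length; the GC line falls from 0.39 to -0.29.

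A block of chromosome 4 set clone 5 apart. Of the chromosome 4 protein-coding genes above 0 in RefSeq order, the last 94, from NUDT6 to FRG1, had a median of 0.85 for clone 5 minus the mean of clones 1 and 4, a 1.80-fold higher level, and clone 5 was highest in 89 of the 94. The 254 genes before NUDT6 had a median of 0.19, and all genes 0.05. In the block 39 genes, or 41.5%, had a range of at least 1, against 3.15% before it. The border was placed after the values had been seen. Within the lowest GC quartile the block had a median of 0.89 against 0.39 for all genes of that quartile, and in the next quartile 0.67 against 0.19.

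Examples from the block are RPS3A, a ribosomal protein gene, at 5.59, 5.63 and 6.56, PLRG1, a splicing factor, at 4.18, 4.15 and 5.15, CENPU, a centromere protein, at 3.07, 3.20 and 4.35, GALNT7, a mucin-type glycosyltransferase, at 3.71, 3.91 and 4.76, and the chromatin protein HMGB2 at 7.53, 7.23 and 7.89. In each of them clone 5 was highest. Windows of 30 neighbouring genes were taken every 15 genes, so that adjacent windows share genes. Over 699 such windows, with each GC quartile centred, 5 had a clone apart by 0.5 or more. Of these 5, 4 lay in the chromosome 4 block, whose border had been placed with the values seen. The remaining one, from TOP6BL to CHKA on chromosome 11, had a median difference of -0.52 for clone 4 and was named for that value. It holds GSTP1, a glutathione transferase, at 8.90, 8.01 and 8.20 and PPP1CA, a phosphatase catalytic subunit, at 7.37, 6.48 and 6.80. CCND1 and CTTN, which lie past CHKA and outside this window, were highest in clone 4. Both belong to a wider stretch of 60 genes, YIF1A to SHANK2, bounded after the values had been seen. In 46 of those 60 genes (76.7%) clone 4 was lowest, against 24.0% of all genes.

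**Figure D5:**
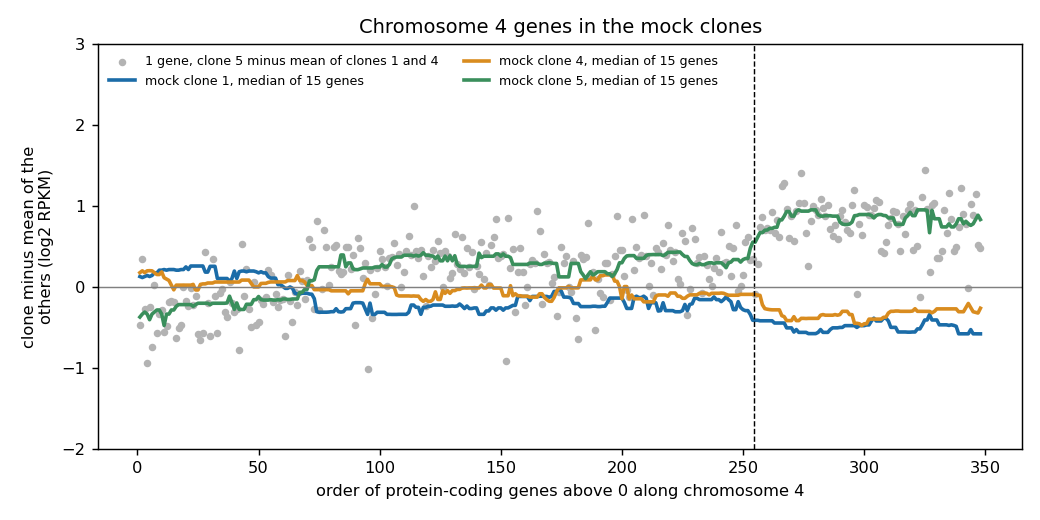
Protein-coding genes above 0 on chromosome 4 in RefSeq order; grey points are clone 5 minus the mean of clones 1 and 4 (log2 RPKM), lines are running medians over 15 genes of each clone minus the mean of the other clones, and the dashed line marks NUDT6. To its right the clone 5 line lies well above 0, with a median of 0.85 over the genes, and the lines of clones 1 and 4 lie below 0.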

How the data were processed

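Expression was measured by RNA sequencing in 3 mock clones, with 1 library per clone. Per the labels' protocols, RNA was treated with DNase, ribosomal RNA was removed and libraries were made with the Ion Total RNA-Seq kit. Build hg19 and bedtools 2.25.0 appear in the submitters' processing notes with no role stated. The aligner is not given in the sources used here. The authors deposited 1 value for each of 40448 Entrez IDs per library, headed RPKM per the file headers, which holds log2 RPKM with genes under 1 RPKM at 0. Values were used as deposited, with no test and no pseudocount.

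Symbols and classes of 37997 IDs came from RefSeq (GRCh38.p14); 2451 IDs without a match, including 112 with a locus suffix, entered no class or list. Mitochondrially encoded genes were not analysed here. Exonic lengths, GC content and snoRNA sequences came from GENCODE 29, microRNA sequences from RefSeq. Per-gene mean, SD and range were taken over the clones with pandas 2.3.3. Depth was the value, between 8000000 and 20000000 reads, that put the most microRNA values within 0.005 of a whole read; 23.4% to 33.1% of the low values did, and the step was tested on simulated data. These depths are approximate, and multiples outside that span were not tried.

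The clones and the 44 gene lists were chosen with earlier results of these data known, and 7 further lists and the gene families were added after seeing the values. Named were the 25 protein-coding genes with the highest mean, of each list up to 6 of the highest members above 0 in all 3 clones and up to 6 listed at 0, of each RNA class the 5 highest, the 12 protein-coding genes of widest range with a mean of at least 4, and the widest member of each list. Other genes named were chosen after their values were seen, and some genes the rule takes in are not reported here. Alternatives were other floors, averages and gene sets, and each clone left out.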

Additional observations from a re-analysis of the deposited data

How the results depend on the processing

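The count of protein-coding genes above 0 (10979) was 11528 with any clone above 0, 9964 with a floor of log2 1, and 11017 to 11086 with a clone left out. The median level (3.59) ran from 3.56 to 3.61 with a clone left out, and 24 or 25 of the 25 highest genes were shared with the main order. The summed share of the highest 10 genes went from 5.15% to 25.9%, and that of the highest 100 from 18.1% to 64.0%, when all gene IDs were used in place of protein-coding ones, which brings in snoRNAs, RPPH1, RMRP and other classes. Leaving out a clone gave 4.91% to 5.41% and 17.6% to 18.5%. Listed zeros among core genes rose from 0% to 1.03% with the lists of mitochondrial ribosomal proteins and complex I subunits added, a setting chosen after seeing the data. List members above 0 numbered 608 of 1131, or 53.8%, beside 57.4% of all protein-coding genes. They numbered 638 with any clone and 568 with a floor of log2 1.

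Genes with a range of at least 1 numbered 366, 372 with each clone centred on its median, 201 of 8884 at a mean of at least 2, and 48 to 229 with a clone left out, the lowest without clone 5. A range over fewer clones is smaller by construction. No paired analysis was possible because no groups were compared and no test was run. With 3 libraries, a listed 0, a gene near 1 RPKM and genes with shared copies have no firm level.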
